A study of Mus musculus with 12 samples.

Results

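Mucins are the large, heavily glycosylated proteins that form the mucus layer and coat epithelial surfaces. The group described here held 9 mouse genes, namely Muc1, Muc2, Muc4, Muc5ac, Muc5b, Muc13, Muc15, Muc16 and Muc20. A peak of N6-methyladenosine (m6A) belonged to the group when it was assigned to a member by gene name or had been called on the gene identifier of a member. Of the 9 genes, 6 had a peak in either of the deposited peak lists, out of 17415 genes with a peak. Their peaks numbered 34 of the 27292 peaks in the ovalbumin (OVA) list and 41 of the 26102 peaks in the phosphate-buffered saline (PBS) list.

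The study mapped m6A in the lung of mice with OVA-induced asthma and of control mice, 3 animals per group, to find which RNAs differ in methylation. All mice were female, of the BALB/c strain and 6 to 8 weeks old. The OVA group was sensitised by intraperitoneal OVA with aluminium hydroxide on days 0 and 7. It then inhaled aerosolised 3% OVA for 30 min daily from day 14 to day 20, whereas the PBS group was given PBS. Lung was taken on day 21, after a methacholine provocation test. Total RNA was depleted of ribosomal RNA and fragmented. The fragments were either pulled down with an m6A antibody (IP) or sequenced without pull-down (input). Because peaks are given as 1 pooled list per group, no value of a single mouse was used, and no difference between the lists below has a replicate check or a test. The sample was lung tissue, in which the airway cells that make most mucins are a small part.

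Muc5ac, Muc5b and Muc2 are secreted and form gels, the first pair in the airways and Muc2 mainly in the gut. Muc1, Muc4, Muc13, Muc15, Muc16 and Muc20 span the cell membrane and stay on the epithelial surface. In allergic airways, goblet cells increase and fill with Muc5ac under interleukin signalling. m6A is the most common internal mark of messenger RNA, usually densest near stop codons and in long internal exons, and it affects the stability and translation of the RNA.

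Each peak carried a fold enrichment, the ratio of IP over input within its group, and the log10 of its p value from the peak caller. A more negative log10 p means a stronger call, and it depends on the number of reads as well as on the enrichment. The lists give neither read counts nor input levels, and the gene expression and differential peak results of the study were not used here. The part that RNA level had in any difference between the lists was therefore not tested. In tissue of mixed cells, fewer cells of a type and less RNA per cell cannot be told apart. Coordinates are those of the lists, on GRCm38.

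The peaks of the 6 genes lay mainly inside exons rather than in untranslated regions (UTRs). In the OVA list, 30 of 34 mucin peaks (88.2%) were annotated to an exon outside the UTRs, compared with 35.7% of all OVA peaks. In the PBS list this held for 39 of 41 (95.1%), compared with 35.9% of all PBS peaks. Only 4 OVA and 2 PBS mucin peaks were in a 3' UTR, the region that held 52.7% of all peaks in each list, and none was in a 5' UTR. Genes with many peaks share part of this pattern: among genes with at least 8 called peaks, 66.3% of OVA peaks and 69.7% of PBS peaks were exonic. The mucin peaks were also of low enrichment. The OVA mucin peaks had a median fold enrichment of 3.54, against 5.59 for all peaks of that list, and the PBS mucin peaks had 2.88, against 5.44. In the OVA list 25 of the 34 were below the median of their list, and in the PBS list 33 of the 41.

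Peaks of the lists were called shared when their exonic blocks overlapped by at least 1 bp. Of the mucin peaks in the OVA list, 24 were shared and 10 (29.4%) were not, while 19.4% of all OVA peaks had no overlapping PBS peak. Of those in the PBS list, 28 were shared and 13 (31.7%) were not, while 14.5% of all PBS peaks had no overlapping OVA peak. When an overlap had to cover at least 50% of both peaks, 13 OVA mucin peaks (38.2%) and 20 PBS mucin peaks (48.8%) had no counterpart, against 31.4% and 28.3% of all peaks. The lone peaks came from few genes. Muc4 held 7 of the lone OVA peaks, Muc5ac 2 and Muc5b 1, and Muc16 held 10 of the lone PBS peaks and Muc4 the other 3. Peaks of low enrichment are less often shared in general: of all peaks with a fold enrichment under 2, 50.2% of OVA peaks and 28.6% of PBS peaks had no counterpart. The mucins had 8 such weak peaks in each list, of which all 8 for OVA and 7 for PBS were lone. With only peaks of at least 2-fold enrichment kept in both lists, 3 of 26 OVA mucin peaks (11.5%) were lone, against 19.5% of all such OVA peaks, and 6 of 33 PBS mucin peaks (18.2%), against 14.4% of all such PBS peaks. The share of lone mucin peaks was thus above the background in the OVA list with the weak peaks and below it without them. In the PBS list it was above the background both with and without them.

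For 24 overlapping pairs of mucin peaks, each an OVA peak with the PBS peak of largest overlap, fold enrichments were set side by side. The value was higher in the OVA list in 20 pairs (83.3%), compared with 59.6% of all 22006 pairs, and in the PBS list in 4. The mucin pairs had a median ratio of OVA over PBS of 1.21, where all pairs had 1.08. It was at least 2-fold higher in the OVA list in 3 pairs (12.5%), compared with 7.63% of all pairs. In the PBS list it was at least 2-fold higher in 2 pairs, compared with 6.79% of all pairs. The result depends on the pairing. With the OVA peak of largest overlap taken for each of the 28 shared PBS peaks, 6 mucin pairs (21.4%) were at least 2-fold higher in the OVA list, compared with 10.3% of all pairs made this way. In the PBS list 1 (3.57%) was, compared with 4.85%. These counts are small, and peaks of a pair often differ in width. Muc16 gave 9 and Muc5b 8 of the 24 pairs, and pairs on the same gene are not independent of each other. The log10 p values were further apart. They were at least 5 times as large in the OVA list in 8 of the 24 pairs (33.3%), against 3.56% of all pairs. No mucin pair had a log10 p at least 5 times as large in the PBS list, where 2.56% of all pairs did. Of these 8 pairs, 7 were on Muc5b and 1 on Muc5ac, the airway gel-forming genes. With a partner taken for each PBS peak there were 12 such pairs among 28 (42.9%), against 6.38% of all pairs, with 8 on Muc5b, 3 on Muc5ac and 1 on Muc20.

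**Figure D1:**
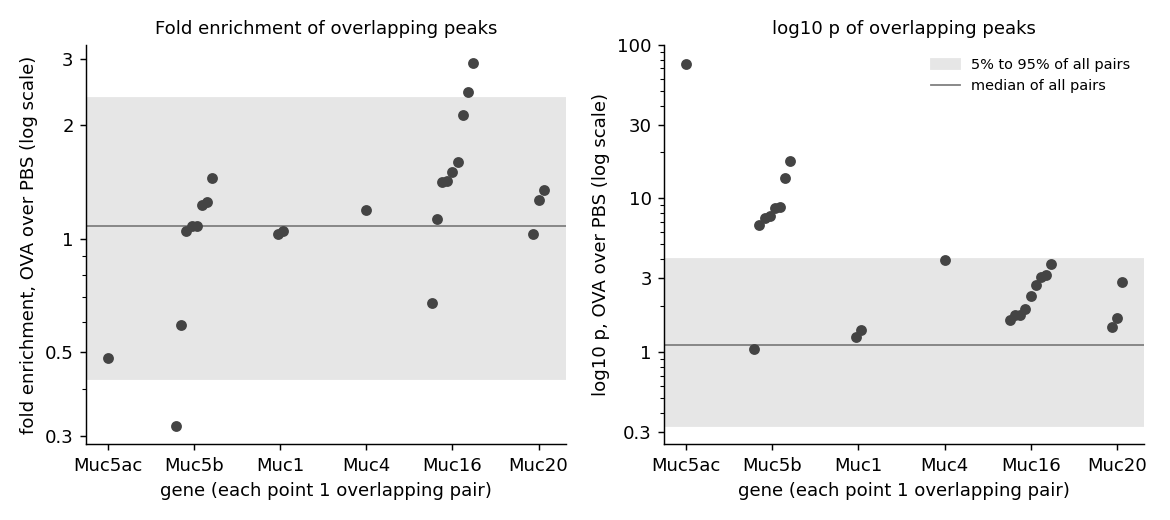
Ratios of OVA over PBS for each overlapping pair of mucin peaks, by gene, for fold enrichment (left) and log10 p (right), both on log axes. Each point is 1 pair, the grey band runs from the 5% to the 95% point of all overlapping pairs, 0.425 to 2.36 and 0.328 to 3.99, and the line is their median. The Muc5ac pair lies at 75.2 and 7 of the 8 Muc5b pairs at or above 6.65 on the log10 p axis, while the fold enrichment ratios of these pairs lie between 0.483 and 1.45.

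Muc5ac (ENSMUSG00000037974), the gel-forming mucin of goblet cells, had 3 peaks in each list, but they differed in width and strength. In the OVA list a single peak at 141807556 to 141810731 on chromosome 7 was 3176 bp wide and lay in exon 31 of 49, a large central exon. Its fold enrichment was 10 and its log10 p -461. In the PBS list the same stretch held 3 narrow peaks. The peak at 141808005 to 141808485 had a fold enrichment of 20.7 and a log10 p of -6.13. The peak at 141809772 to 141809893 had a fold enrichment of 7.9 with a log10 p of -1.99, and the peak at 141807706 to 141807766 had 2.11 with -1.35. The last 2 did not reach a false discovery rate (FDR) under 0.05. Thus the strongest single enrichment of any mucin peak stood in the PBS list. Its call reached an FDR under 0.05 but was far weaker than that of the wide OVA peak.

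The wide OVA peak and the best PBS peak formed the Muc5ac pair. The OVA fold enrichment was 0.483 times the PBS value, while the log10 p was 75.2 times as large. These are peaks of unequal width, and against the other PBS peaks inside it the wide peak had ratios of 4.74 and 1.27. The direction of the enrichment ratio therefore depends on the partner, whereas the log10 p was larger in the OVA list against all 3. The other Muc5ac peaks of the OVA list had no counterpart. In exon 31, the peak at 141807017 to 141807257 had a fold enrichment of 1.26 and a log10 p of -3.9. The peak at 141818811 to 141818961, in a 3' UTR, had been called on Muc5ac but assigned to the neighbouring Muc5b by its annotation. Its position lies within the RefSeq span of Muc5ac, 141788958 to 141819227, and outside that of Muc5b, which begins at 141839059. This peak had a fold enrichment of 1.88 and a log10 p of -41.3. Taking all peaks called on the gene, 3565 exonic bp of Muc5ac lay in OVA peaks and 661 bp in PBS peaks, all of the latter inside OVA peaks. That is 5.39 times as much in the OVA list, and of the 12283 genes called in both lists, 76 including Muc5ac had a ratio at least as large. With peaks at an FDR under 0.05 only the ratio was 7.43, and with peaks of at least 2-fold enrichment only it was 4.8.

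Muc5b (ENSMUSG00000066108), the gel-forming mucin that airways make also without inflammation, lies next to Muc5ac on chromosome 7. Its peaks had nearly the same layout in the lists, with 9 OVA and 8 PBS peaks. Exon 31 of 49 held 7 peaks in each list, spread over 7828 bp from 141857319 to 141865146 in the PBS list and over 7258 bp in the OVA list. Each list also had a 3' UTR peak ending at 141873084, with a fold enrichment of 3.33 (log10 p -129) for OVA and 2.29 (log10 p -7.37) for PBS. The remaining OVA peak, at 141856862 to 141857800, began in exon 30 with a short block and lay mostly in the next exon. It had the lowest log10 p of the gene in the OVA list, -1510, at a fold enrichment of 6.43.

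The highest fold enrichment of Muc5b in the OVA list was 7.33, at 141863976 to 141865146, with a log10 p of -1260. The overlapping PBS peak, 141864066 to 141865146, had 6.79 and -165. In the PBS list the peak at 141857319 to 141858040 was highest in fold enrichment, 10.9, and lowest in log10 p, -227. So the enrichment of this gene was much alike in the lists, but the calls were stronger in the OVA list. Over its 8 pairs the fold enrichment ratio had a median of 1.08, equal to that of all pairs, and ran from 0.318 to 1.45. The PBS peak at 141857319 to 141858040 entered 2 of these pairs, with ratios of 0.59 and 0.318, and met the OVA peak of the latter only at its edge. The PBS peak wholly inside that OVA peak, at 141858129 to 141858220, gave a ratio of 1.43. The log10 p ratio had a median of 8.15 and ran from 1.04 to 17.5, where all pairs had a median of 1.11. Covered exonic length was 4328 bp in OVA peaks and 3397 bp in PBS peaks, a ratio of 1.27. The OVA peak without a counterpart, at 141862447 to 141862688, had a fold enrichment of 2.48.

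**Figure D2:**
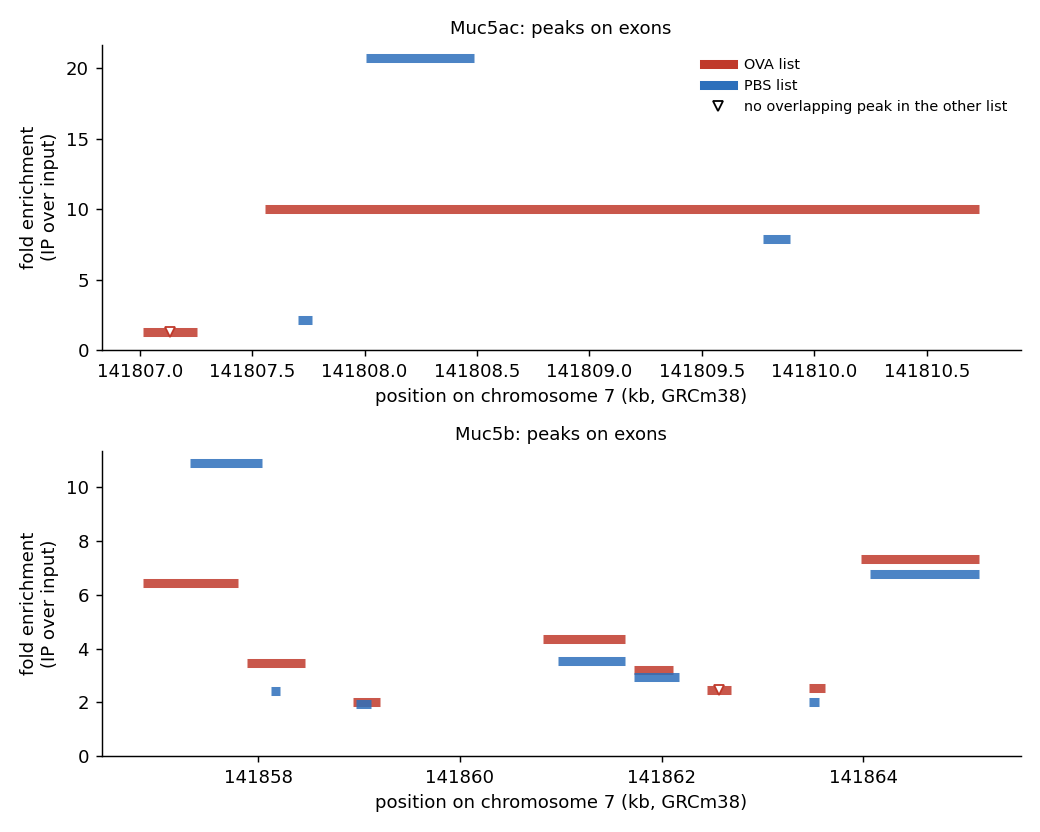
Exonic peaks of Muc5ac (top) and Muc5b (bottom), with position on chromosome 7 in kb on the horizontal axis and fold enrichment of IP over input on the vertical axis. Bars span each peak from start to end, introns included, in red for the OVA list and blue for the PBS list, and open triangles mark peaks with no counterpart. In Muc5ac the OVA peak of 3176 bp covers the 3 PBS peaks, whereas in Muc5b red and blue bars lie side by side along exon 31.

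Muc2, the intestinal gel-forming mucin, had no peak in either list. No peak of any gene lay within its RefSeq position on GRCm38. The same was true of the transmembrane mucins Muc13 and Muc15. A gene without a called peak may be silent in the tissue or expressed without enrichment, and the lists do not separate these.

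Muc1 (ENSMUSG00000042784), a transmembrane mucin of many epithelia, differed least between the lists. Its 3' UTR peak had the same coordinates in each, 89233053 to 89233381 on chromosome 3. This peak reached a fold enrichment of 7.86 at a log10 p of -1810 for OVA, and 7.66 at -1310 for PBS. The exonic peak ended at 89230740 in each list. It began at 89229967 in the OVA list, in exon 2 of 7, with a fold enrichment of 3.32 and a log10 p of -1040. In the PBS list it began at 89229175, with a first block of 2 bp in exon 1 and the rest in the next exon, a fold enrichment of 3.16 and a log10 p of -833. Covered length was 1101 bp and 1160 bp. The log10 p ratios of its pairs, 1.25 and 1.38, were near the median of all pairs.

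Muc16 (ENSMUSG00000109564), a very large transmembrane mucin of airway epithelium and mesothelium, had the most peaks of the group. The OVA list held 9 and the PBS list 20. All lay in 2 long exons of the annotated transcript of 78 exons, on the minus strand of chromosome 9. Exon 4 held 5 OVA and 14 PBS peaks, the latter spread over 10613 bp from 18636799 to 18647411. Exon 2 held 4 OVA and 6 PBS peaks between 18654835 and 18660891, a stretch of 6057 bp. Each of these exons is therefore at least as long as its stretch of peaks.

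The 9 OVA peaks of Muc16 all overlapped PBS peaks, and 10 of the 20 PBS peaks had no OVA counterpart. The lone PBS peaks had fold enrichments from 1.63 to 4.32 with a median of 2.43, and log10 p values between -18.2 and -1.65. The shared PBS peaks had fold enrichments from 2.11 to 7.06 with a median of 3.18, so the ranges overlapped. An FDR under 0.05 was reached by 17 of the 20 PBS peaks, and at least 2-fold enrichment by 16, while all 9 OVA peaks met each filter. The larger number in the PBS list therefore held under both filters. In the 5' part of exon 4, at positions above 18643184, the PBS list had 6 peaks and the OVA list had none. Some of these were weak, with fold enrichments of 1.73, 1.97 and 1.67 at 18644053, 18645941 and 18647350. The first and last of those did not reach an FDR under 0.05. The others had fold enrichments from 2.18 to 4.32. OVA peaks covered 2826 exonic bp and PBS peaks 4577 bp, a ratio of 0.617.

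Where Muc16 was called in each list, enrichment was higher in the OVA list in 8 of 9 pairs, a direction that 59.6% of all pairs had. The ratio had a median of 1.5 and ran from 0.676 to 2.93. All 3 of the 24 mucin pairs that were at least 2-fold higher in the OVA list were on this gene, with ratios of 2.13, 2.45 and 2.93. The median fold enrichment over all its peaks was 5.29 for OVA and 2.87 for PBS. These sets are unlike, because the PBS value includes the lone peaks. Over the shared PBS peaks only, the median was 3.18. The strongest peak was at the same place in each list. It ran from 18642794 to 18643124 in the OVA list, with a fold enrichment of 9.97 and a log10 p of -79.6, and to 18643184 in the PBS list, with 7.06 and -49.5. The exception to the direction was the pair at 18660740 to 18660861, with 4.67 in the OVA list and 6.91 in the overlapping PBS peak. Thus the OVA list had fewer peaks on this gene, and higher enrichment at most of the places called in both lists. The 10 lone PBS peaks have no OVA value, so enrichment there could not be compared.

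**Figure D3:**
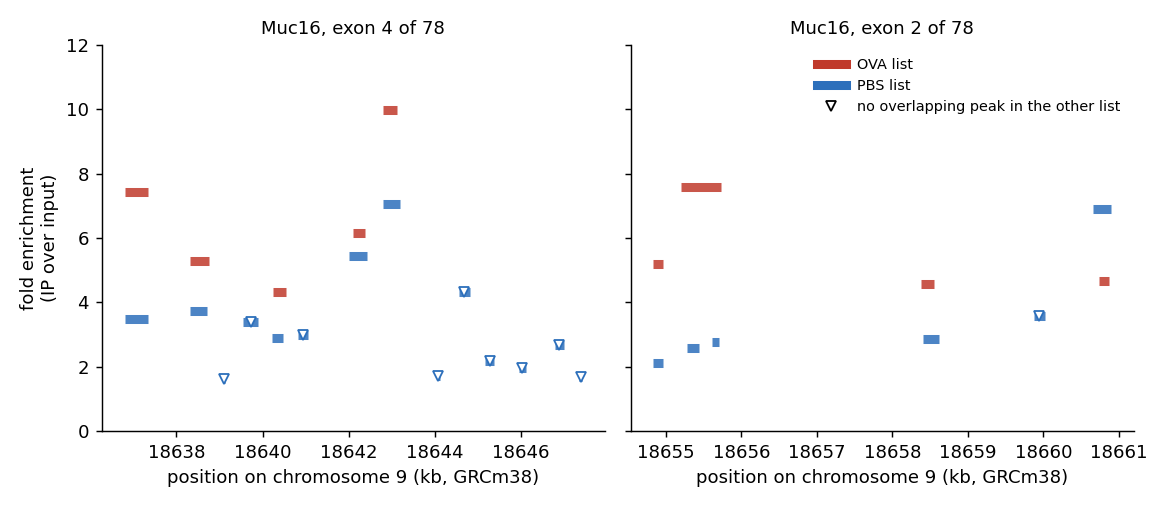
Muc16 peaks in exon 4 (left) and exon 2 (right) of 78, with position on chromosome 9 in kb against fold enrichment of IP over input. Red bars are OVA peaks, blue bars PBS peaks, and open triangles mark the 10 PBS peaks without an overlapping OVA peak, whose fold enrichments are between 1.63 and 4.32. In 8 of the 9 overlapping pairs the red bar is higher.

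Set among the 14988 genes with a called peak, Muc16 was second in the PBS list by number of peaks. In the OVA list it stood out less, as 67 genes, Muc16 included, had at least as many peaks as it. The gene with at least as many peaks in both lists was Ttn, which codes for titin, the giant protein of striated muscle, with 23 OVA and 40 PBS peaks. The excess of PBS over OVA peaks was 11 for Muc16. It was larger for Ttn, at 17, and for Xirp2, an actin-binding muscle gene named after its values were seen, which had 0 OVA and 12 PBS peaks. So the genes with the greatest excess of PBS peaks were Muc16 and a pair of muscle genes. The other mucins with many peaks did not share this direction, with a lower number in the PBS list for Muc5b and Muc4.

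Muc4 (ENSMUSG00000079620), a transmembrane mucin that binds an epidermal growth factor receptor family member, had 8 OVA and 4 PBS peaks on chromosome 16. Only a single pair overlapped. The OVA peak at 32750736 to 32751336 had a fold enrichment of 3.62 and a log10 p of -106. The PBS peak at 32750706 to 32751306 had 3.04 and -26.6. The other exonic peaks were weak in each list. The 6 exonic OVA peaks without a counterpart were between 32750466 and 32756765, with fold enrichments from 1.35 to 1.9. The 3 PBS peaks without one were between 32753495 and 32754665, with fold enrichments from 1.42 to 1.6. The lone PBS peaks lay between lone OVA peaks along the gene, and none of these exonic peaks reached a fold enrichment of 2.

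The last lone OVA peak of Muc4, in a 3' UTR at 32781970 to 32782331, was stronger, with a fold enrichment of 3.65 and a log10 p of -30.5. It was assigned to a transcript annotated as a retained intron, and it lies where the RefSeq positions of Muc4 and Muc20 overlap on opposite strands. Whether peak calling used the strand is not given in the sources used here, so RNA of Muc4 and Muc20 cannot be told apart at this site. OVA peaks covered 2527 exonic bp of Muc4 and PBS peaks 1023 bp, a ratio of 2.47. With peaks of at least 2-fold enrichment only, it was 961 bp and 600 bp, a ratio of 1.6. Among genes called in both lists, 6.04% had at least 2 times as many exonic bp in OVA peaks and 3.35% at least 2 times as many in PBS peaks. Of the 6 mucin genes, 2 were past this ratio towards the OVA list, Muc5ac and Muc4, and 0 towards the PBS list.

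Muc20 (ENSMUSG00000035638), a transmembrane mucin on the minus strand beside Muc4, had 3 OVA and 4 PBS peaks, all in exon 2 of 4. The OVA peak at 32793228 to 32793766 had a fold enrichment of 5.91 and a log10 p of -60.8. It covered a pair of PBS peaks, at 32793258 to 32793318 with a fold enrichment of 2, and at 32793466 to 32793766 with 4.65 and a log10 p of -41.7. The next OVA peak began at 32794123, with a fold enrichment of 3.07, and the next PBS peak at 32794093, with 2.27. The last began at 32794600 and 32794629, with 3.3 and 3.21. All of its peaks were shared. Over its 3 pairs, each OVA peak with the PBS peak of largest overlap, the fold enrichment ratio ran from 1.03 to 1.35 and the log10 p ratio from 1.46 to 2.85. The narrow PBS peak at 32793258 was outside these pairs, and against it the covering OVA peak had ratios of 2.96 and 11.9. In all, 1195 bp were covered by OVA peaks and 869 bp by PBS peaks.

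**Figure D4:**
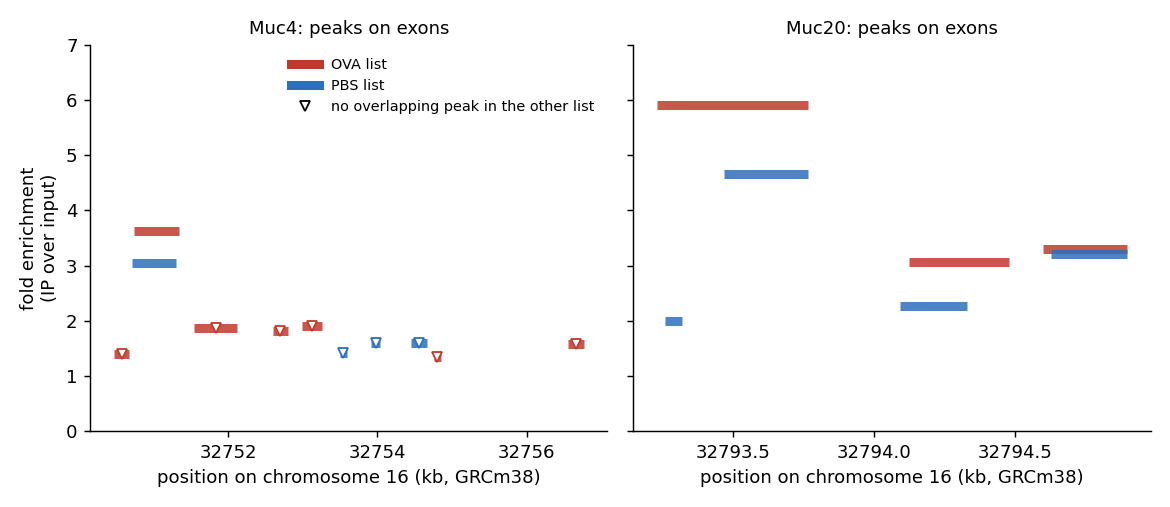
Exonic peaks of Muc4 (left) and Muc20 (right), with position on chromosome 16 in kb against fold enrichment of IP over input, red for the OVA list and blue for the PBS list. Open triangles mark peaks with no counterpart. In Muc4 all marked peaks are at or below 1.9, while every Muc20 peak overlaps one in the other list.

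The wider mucus pathway was covered by 5 gene lists with 80 genes, of which 62 had a peak. Both lists held a peak for 56 of these, the OVA list alone for 6 (9.68%) and the PBS list alone for 0. Over all 17415 genes with a peak, 10.2% had OVA peaks only and 6.87% had PBS peaks only. The OVA-only share of the pathway genes was therefore near the background. Its genes were spread over 4 of the gene lists.

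Of 12 other mucins and mucin-like glycoproteins, 7 had a peak, 5 in both lists and 2 in the OVA list only. The OVA-only genes were Mucl1, with 1 peak of fold enrichment 5.65 and log10 p -4.57, and Prg4, the joint lubricant lubricin, with 2 peaks of which the higher had 4.62 and -3.92. The highest enrichment was on Spn, the sialophorin of leukocytes, 25.8 (OVA) and 25.9 (PBS). Podxl, the podocalyxin of endothelium and podocytes, came next with 9.69 and 9.47. Muc6, a gel-forming mucin in the same cluster as Muc2, Muc5ac and Muc5b that was singled out after its values were seen, had 1 OVA peak and 2 PBS peaks. None of the Muc6 peaks overlapped.

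Of 16 goblet cell and mucus secretion genes, 8 had a peak, 6 in both lists and 2 in the OVA list only. Clca1, a secreted protein of goblet cells that is a known marker of allergic mucus, had 1 OVA peak in the 3' UTR at 145004146 to 145004866 on chromosome 3. Its fold enrichment was 3.55 and its log10 p -999, by far the strongest call among the OVA-only pathway genes. Ern2, the endoplasmic reticulum stress sensor of mucous cells, had 1 OVA peak with a fold enrichment of 4.88 and a log10 p of -6.69. Foxa3, a transcription factor of goblet cells, had the highest enrichment, 27.7 with a log10 p of -56.7 for OVA and 15.8 with -4.5 for PBS. Fcgbp, a secreted partner of gel-forming mucins, had 7 OVA and 8 PBS peaks. Its highest OVA peak had a fold enrichment of 16 and a log10 p of -555, and its highest PBS peak had 23.7 and -7.12.

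Of 22 enzymes of mucin O-glycosylation, 21 had a peak and 20 had one in both lists. Gcnt3, which makes the branched core structures of mucin sugars, had 3 OVA peaks and no PBS peak. Its highest fold enrichment was 38.6, with a log10 p of -50.9, in the 3' UTR at 70033764 to 70034363 on chromosome 9. C1galt1, the enzyme that extends the mucin sugar chain to its core, had the highest enrichment of the list, 60.6 for OVA and 54.3 for PBS. Galnt5, one of the enzymes that attach the starting sugar, had 21.6 and 47.9. Most of these enzymes act in many cell types, and their peaks were called in each list.

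All 16 genes of mucin granule docking and release had a peak, 15 in both lists. Unc13d, a priming factor of granule release, had a peak in the OVA list only, with a fold enrichment of 2.99 and a log10 p of -7.55. The single PBS peak assigned to Syt2 had been called on another gene, so by called gene 14 were in both lists and 2 in the OVA list only. The highest enrichments were on the fusion protein gene Stx3, 20.5 for OVA and 32.1 for PBS, and on P2ry2, the nucleotide receptor that triggers mucin release, 26.5 and 17.8. Of 14 genes of upstream signals, 10 had a peak, all in both lists. Sox2, a transcription factor of the conducting airways, had 42.4 for OVA and 17.1 for PBS, and the growth factor receptor gene Egfr had 29.6 and 33. The Sox2 values come from the higher of 2 OVA peaks and from 1 wider PBS peak, with log10 p values of -44.1 and -39.7. The 2 peaks assigned to Il13 in each list had been called on other genes, so by called gene 9 of these 14 genes had a peak.

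The tissue label was checked against marker genes. Peaks were found in each list on the alveolar genes Sftpb, Lamp3, Ager and Hopx, the club cell gene Scgb1a1, the ciliated cell genes Foxj1 and Tekt1, and the endothelial genes Pecam1 and Cdh5. The gut markers Cdx2 and Vil1 had 0 peaks in each list, and so did Sftpc, a defining gene of alveolar type 2 cells. Of the goblet cell markers, Muc5ac and Spdef had peaks in each list and Agr2 had none. Of the eosinophil markers, Ccr3 had 1 peak in each list and Siglecf none. Cyp2f2, a club cell marker, had 1 peak in the OVA list only, and Msln, a marker of mesothelium, 1 in the PBS list only. Msln thus had its peak in the list in which Muc16, a gene also made by mesothelium, had more peaks, while the mesothelial marker Wt1 had 0 peaks in each. The part of mesothelial cells in the Muc16 result was not tested. Lpo and Muc19, markers of submucosal or salivary glands, had 0 peaks in each list.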

How the data were processed

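Lung RNA of 3 OVA and 3 PBS mice gave 6 IP and 6 input libraries, made with strand marking by dUTP. According to the methods, reads were cleaned with FASTP and aligned by HISAT2 to Ensembl's mouse genome. Peak calling was done with exomePeak, annotation with ChIPseeker, and 1 list per group was deposited. How replicates were combined is not given in the sources used here. The deposited fold enrichment is the authors' ratio of IP over input in a peak. A deposited score gives, on the log10 scale, the p value or FDR from the authors' caller. Read depth behind a peak is not in the lists, so no interval is given.

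Peaks were compared by overlap of exonic blocks (at least 1 bp) in Python 3.11.15 with numpy 2.4.6 and pandas 2.3.3, and figures were drawn with matplotlib 3.10.9. The overlap code was tested on simulated data. Pairs with an infinite log10 p were left out of log10 p ratios. Gene positions for neighbourhood and for genes without a peak came from RefSeq (GRCm38.p6). Shares and medians over all peaks or genes are given for comparison only. They are not a test, since peaks of the same gene are not independent.

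All members were named. For members with more than 6 peaks in a list, counts, ranges and the peaks of highest fold enrichment and lowest p were given. Of each pathway list, genes with a peak in 1 list only and the 2 genes with the highest enrichment were named, and of other genes those with at least as many peaks as Muc16 in both lists. The members and lists were chosen with earlier results of these data known. Alternatives were an FDR under 0.05, a fold enrichment of at least 2, other overlap rules, other thresholds, and assignment by called or named gene only. Sequence motifs in peaks were not analysed here.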

Additional observations from a re-analysis of the deposited data

How the results depend on the processing

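For 17 results, 67 alternatives were computed, and 57 of them stayed within 1.5 times the main count or 1.1 times the main median. The values that moved more were these. Requiring identical start and end left 3 shared peaks in place of 24 in the OVA list and 3 in place of 28 in the PBS list. Under this rule 91.2% of OVA and 92.7% of PBS mucin peaks were lone, near the 89.7% and 89.3% of all peaks. The pairs with higher fold enrichment in the OVA list numbered 5 at 1.5-fold and 0 at 3-fold, in place of 3 at 2-fold, and those with higher fold enrichment in the PBS list numbered 1 at 3-fold in place of 2. With a partner chosen for each PBS peak, these pairs at 2-fold numbered 6 and 1. The median fold enrichment of OVA mucin peaks was 4.47 in place of 3.54 when only peaks of at least 2 were kept, as that filter removes low values. A log10 p at least 10 times as large in the OVA list was found in 3 pairs, in place of 8 at 5 times. With peaks of at least 2-fold enrichment, 1 gene in place of 2 had at least 2 times the exonic bp in OVA peaks, because Muc4 dropped out. The alternatives for Muc16 counts, log10 p ratios, the partner of each PBS peak, covered length and the pathway genes in 1 list only were chosen after seeing the data. No paired analysis was possible because each group is given as 1 pooled list without values of single mice, and leaving out a replicate could not be run for the same reason.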
